A study of Mus musculus with 16 samples.

Results

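Genes of the melanocyte lineage were followed through single-cell libraries of B16 melanomas. They are the 9 rows of Mlana, Pmel, Dct, Tyrp1, Tyr, Slc45a2, Gpr143, Mitf and Sox10 among the 32285 genes that each matrix lists, and they were chosen by symbol. B16 is a pigmented mouse melanoma line, and the implanted cells were its Bro4.1 derivative, either control or lacking B2m, the light chain of MHC class I. C57BL/6J mice received 1000000 such cells under the skin. They were then given 100 µg of an antibody to CD40, a receptor that activates antigen-presenting cells, or of a rat IgG2a isotype antibody, on days 6, 9 and 12. Tumours were taken on day 14 and cells were enriched on CD45 beads, so the tumour cells present had been carried through the enrichment. The sample labels write the genotype (wild type or B2M knockout) as if it were that of the mouse strain, whereas the design text places the loss in the implanted cells and was followed. The groups were control tumours under isotype, control tumours under CD40, B2m-null tumours under isotype and B2m-null tumours under CD40.

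Cells of several mice were tagged, mixed and run together, and the pool was the unit of comparison. There were 7 pools: 2 in each group except control tumours under CD40, whose 2 lanes are technical replicates of 1 pool. That group's spread was taken from the others, and its pool cannot be told apart from its treatment. Unique molecular identifiers (UMIs, each 1 captured RNA molecule) totalled 48719173 to 107833234 per pool. Lanes shared 41 to 92 cell barcodes with one another, at most 0.623% of the smaller lane.

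Pigment is made in melanosomes, which are lysosome-related organelles of melanocytes. Mitf is the transcription factor that drives the lineage, and Sox10 is a neural crest factor that activates Mitf. Tyr, the rate-limiting enzyme of melanin synthesis, works with Tyrp1 and Dct, which act on later intermediates. Pmel forms the fibrils on which melanin is laid down, Mlana is a melanosomal membrane protein, Slc45a2 is a transporter needed for melanosome pH, and Gpr143 is a melanosomal receptor. Mitf is also used outside pigment cells, in osteoclasts, mast cells and macrophages.

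In GRCm38 (GENCODE M21) the genes lie on 8 chromosomes. Mlana is at chr19:29697824-29708634, Pmel at chr10:128704195-128720238, Tyrp1 at chr4:80834123-80851719 and Mitf at chr6:97807052-98021349, all on the plus strand. Slc45a2 is at chr15:11000721-11029233 and Gpr143 at chrX:152781921-152808646, also on the plus strand. Dct (chr14:118012790-118052244), Tyr (chr7:87424771-87493512) and Sox10 (chr15:79154908-79165240) are on the minus strand.

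The promoter of Tyr is shown because Tyr is the 1 gene of the 9 that edgeR called in melanoma-like cells, in 1 of 4 comparisons. Promoter sequences in the RefSeq table (GRCm38.p6) were matched for 4 of the 9 genes: Tyr, Tyrp1, Dct and Mitf. The 250 bases before each start site were searched on both strands for CATGTG and CACGTG, letters bound by basic helix-loop-helix factors such as Mitf, and for TCATGTG. The last holds CATGTG within it and is the core of the M-box of pigment genes. It was found in 3 of the 4 genes, against 3.25% of 32851 promoter windows of the same length. Those 3 genes also held CATGTG, present in 12.3% of windows. None held CACGTG, present in 6.02%. The 3 Mitf promoters held none of these letters. The Tyr window spans chr7:87493513-87493762 and is written on the minus strand, with TCATGTG in capitals, 22 bases before the start site.
Tyr: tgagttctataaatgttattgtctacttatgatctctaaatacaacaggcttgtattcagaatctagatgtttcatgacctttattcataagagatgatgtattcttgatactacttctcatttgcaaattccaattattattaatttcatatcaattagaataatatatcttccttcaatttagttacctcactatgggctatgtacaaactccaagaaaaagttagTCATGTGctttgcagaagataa

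The other matches are shown with 10 bases on each side, on the strand that reads TCATGTG. The Tyrp1 match is 47 bases before the RefSeq start site, at chr4:80834156-80834182 on the plus strand. The GENCODE gene of Tyrp1 starts upstream of that site, so by GENCODE the match lies inside the gene. Dct has a match 151 bases before the start site, at chr14:118052381-118052407 on the minus strand, and another 232 bases before it, at chr14:118052462-118052488 on the plus strand.
Tyrp1: ggggagggagTCATGTGctgcctagta
Dct, nearer: gcacttagggTCATGTGctaacaaaga
Dct, farther: tttattgggcTCATGTGtcccagccaa

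Melanoma-like cells carried all 9 genes, from Gpr143 at 19.1 to 35.0 to Dct at 3753 to 5493 UMIs per 1000000 UMIs (CPM) over the pools. These cells were 1 cluster of 1445 barcodes, built without the 9 genes and named from 13 other markers of the lineage, of which 11 were raised. B2m checked the genotype: it stood at 1597 and 1078 CPM in the control isotype pools, 2060 CPM under CD40, 233 and 195 CPM in the B2m-null isotype pools, and 476 and 416 CPM in the B2m-null CD40 pools. Across all genes, B2m was lower in B2m-null than control tumours by edgeR's quasi-likelihood test under isotype (log2 -2.65 ± 0.19 SE, adjusted p = 6.68e-05) and under CD40 (log2 -2.28 ± 0.22 SE, adjusted p = 0.00241). The pools held 46 to 497 melanoma-like cells, fewest in the B2m-null CD40 pools (91 and 46).

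Dct, Tyrp1, Pmel and Mlana led, whereas the enzyme Tyr stood lower. The 3' libraries count each molecule once whatever its length, so levels of different genes are compared as CPM. Dct ranged from 3753 to 5493 CPM over the 7 pools (median 4302), Tyrp1 from 2114 to 2744 (median 2397), Pmel from 1671 to 2113 (median 1943) and Mlana from 1310 to 1782 (median 1443). In every pool the order was Dct, Tyrp1, Pmel, Mlana, although the lowest pool of Tyrp1 was level with the highest of Pmel and the ranges of Pmel and Mlana overlapped. Below them stood Mitf at 427 to 714 CPM (median 539), Slc45a2 at 310 to 419 (median 372) and Tyr at 240 to 506 (median 356). The ranges of these 3 overlapped. Sox10 lay at 84.7 to 119 CPM (median 97.9) and Gpr143 at 19.1 to 35.0 (median 30.1), each clear of its neighbours in the order. Together the 9 genes made up 10129 to 12849 CPM. The technical lanes of the control CD40 pool agreed closely for Tyr but not for Tyrp1, which stood at 2324 and 1830 CPM. In the lane with 1830 CPM Tyrp1 was below Pmel (1932 CPM) and level with Mlana (1829 CPM), so the order of the pools did not hold in that lane.

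**Figure D1:**
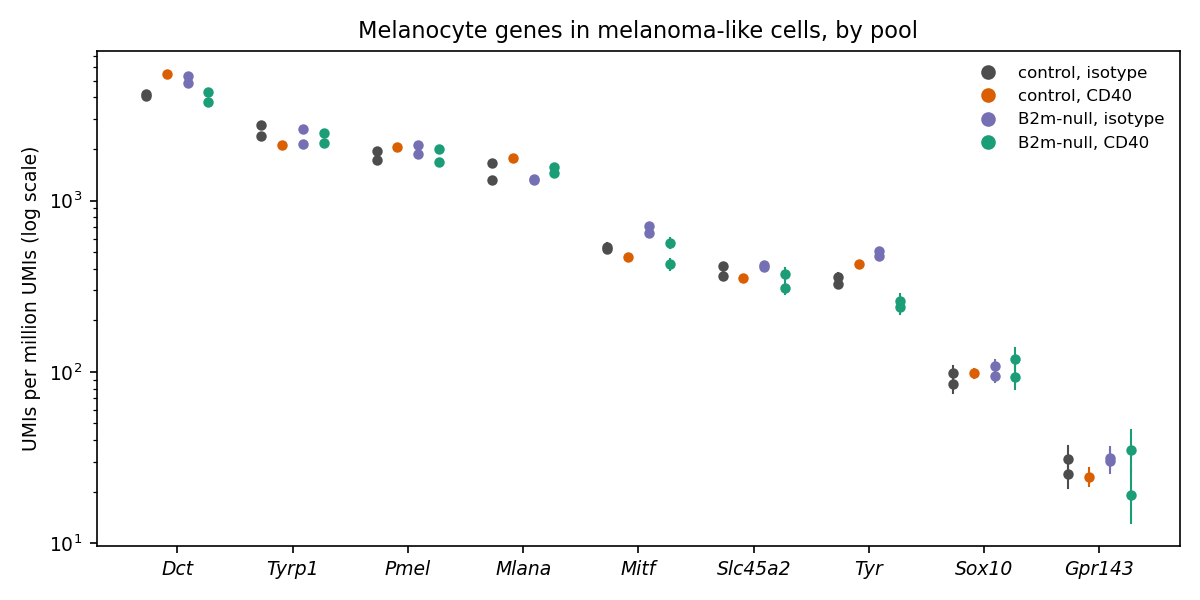
Level of each gene in melanoma-like cells, in CPM on a log axis. Each point is 1 of 7 pools coloured by group, and vertical lines are 95% Poisson intervals, which cover counting error only. Tyr is the gene whose B2m-null CD40 pools (240 and 259) lie below all other pools.

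Most single melanoma-like cells held nearly the whole set. Among the 1237 with at least 5000 UMIs, 99.4% had a UMI of Dct, 99.2% of Tyrp1, 99.1% of Mlana and 98.3% of Pmel. Slc45a2 was seen in 96.0%, Tyr in 95.9%, Mitf in 94.7%, Sox10 in 80.6% and Gpr143 in 43.7%. The genes other than Mitf took a median of 1.12% of a cell's UMIs, and 0.258% and 1.88% at the 5th and 95th percentiles. A minority of the cluster, 64 of 1445 barcodes, had under 5 UMIs of the 9 genes, and 16 had none. The summed level of 8 macrophage markers in the class was 787 to 1336 CPM, and all 8 were detected in every pool. The part of these macrophage transcripts in the values was not tested.

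Within a pool, cells rich in one pigment gene tended to be rich in others. Spearman correlations of UMI fractions were taken over 1199 cells with at least 5000 UMIs, in 6 pools with at least 50 such cells. They are given as a description, since cells of a pool share library and depth. The median over pools was 0.53 for Pmel with Tyrp1, 0.52 for Pmel with Dct, 0.52 for Dct with Tyr and 0.46 for Mlana with Pmel. The lowest medians were those of Sox10 with the pigment genes, such as 0.11 for Mlana, 0.10 for Dct and 0.00059 for Tyrp1. The highest median of Sox10 was 0.27, with Mitf. Mitf also had low medians with the pigment genes, from 0.11 with Gpr143 to 0.24 with Dct. Some pairs of pigment genes were low too, such as Tyr with Gpr143 at 0.18. Over 66 points of a pool and class with at least 50 barcodes, the 5 other genes whose log2(CPM + 1) was most like the mean of the 9 were Glrb (r = 0.974), Car14 (0.970), Pax3 (0.970), Zic5 (0.969) and Tspan10 (0.967). Of the 9 genes, Mitf was the least like that mean (r = 0.833). The points share libraries, and take in both melanoma-like and immune cells.

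Under CD40, Tyr fell in melanoma-like cells of B2m-null tumours. Tyr measured 506 and 474 CPM in the B2m-null isotype pools and 240 and 259 CPM in the B2m-null CD40 pools. The 2 groups did not overlap. They did not overlap either for Dct, Mitf and Slc45a2, which were lower under CD40, or for Mlana, which was higher. The share of all genes without overlap was not counted. The log2 change of Tyr was -0.86 ± 0.14 (SE, edgeR, adjusted p = 0.0140). Tyr was the 1 of 9 genes called. Across all 11860 genes tested 1.3% were called, and 0.236% were called lower. The median log2 change of the 9 was -0.09, and that of all genes was -0.01. The call was lost without B2m-null CD40 replicate 1 (log2 -0.78, adjusted p = 0.108) and with stricter cell filters (log2 -0.71, adjusted p = 0.293). Both kept the direction. At 91 and 46 cells, the B2m-null CD40 pools were also the smallest samples of this class. Summed CD8 T markers in melanoma-like cells, 4 genes, were 5.01 and 2.72 CPM in the B2m-null isotype pools and 31.1 and 23.8 CPM in the B2m-null CD40 pools, against 14.9, 7.63 and 37.0 CPM in the control pools. Melanoma-like barcodes with under 5 UMIs of the 9 genes were 2.84% and 5.30% under isotype and 10.99% and 10.9% under CD40 in B2m-null tumours, against 2.21% to 8.48% in the control pools. B2m, which the implanted cells of these tumours were made to lack, was higher under CD40 in melanoma-like cells of B2m-null tumours (log2 1.17 ± 0.19 SE, edgeR adjusted p = 0.0132), and also in monocytes and macrophages (log2 0.87 ± 0.12 SE, adjusted p = 0.00450). The part of these values in that of Tyr was not tested.

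In control tumours the CD40 pool had 428 CPM of Tyr, above the isotype pools at 356 and 325. Its technical lanes gave 435 and 420. The log2 difference was 0.50 ± 0.16 (SE) and did not pass (edgeR, adjusted p = 0.245). Dct, at 5493 CPM against 4170 and 4102, differed by 0.58 ± 0.17 (SE, adjusted p = 0.181). edgeR called 0 of the 9 genes, where 1% of all genes were called. DESeq2, whose share of all genes called is not given, called Dct alone of the 9. At an unadjusted p under 0.05 edgeR had 3 of the 9, and 1233 of all 11860 genes.

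Between genotypes edgeR called 0 of the 9 genes under isotype, where 1.19% of all genes were called, and 0 under CD40, where 0.329% were. At an unadjusted p under 0.05 edgeR had 2 of the 9 genes in each comparison. Of all 11860 genes it had 1175 under isotype and 1235 under CD40. DESeq2, whose shares of all genes called are not given, called Tyr in both comparisons. The log2 difference of Tyr, B2m-null minus control, was 0.52 ± 0.14 under isotype (SE, edgeR adjusted p = 0.128) and -0.85 ± 0.17 under CD40 (SE, adjusted p = 0.0651). Mitf was 714 and 649 CPM in the B2m-null isotype pools and 539 and 520 CPM in the control isotype pools (log2 0.36 ± 0.16 SE, adjusted p = 0.491). These comparisons share pools with the CD40 comparisons.

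By a test added after the data were seen, the fitted CD40 effect on Tyr in B2m-null tumours minus that in control tumours was -1.37 ± 0.22 on the log2 scale (SE, edgeR interaction term, adjusted p = 0.0226). The control effect rests on 1 CD40 pool, so that pool and its treatment cannot be told apart. Tyr was the 1 of 9 genes that passed, and 0.211% of all genes did. Dct came next (-0.82 ± 0.23 SE, adjusted p = 0.215). The difference for Tyr passed in 8 of 12 alternatives, and did not pass with stricter cell filters (adjusted p = 0.348) or without control isotype replicate 1 (adjusted p = 0.134), control isotype replicate 2 (adjusted p = 0.106) or B2m-null CD40 replicate 1 (adjusted p = 0.0916). In monocytes and macrophages edgeR called 0 of 8 genes in this test, where 0.426% of all genes were called. In CD8 T-like cells it called 0 of 5, where 0% of all genes were. At an unadjusted p under 0.05 there were 6 and 4 genes, and the share of all genes at that level was not counted.

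Other genes of the pigment pathway, 48 in all, mostly did not pass in melanoma-like cells, where 46 were tested. In control tumours 2 rose with CD40, where 0.902% of all genes did, and 0 fell. Both are also markers used to name the cluster. S100a1, a calcium-binding protein, was 121 and 121 CPM under isotype and 262 CPM under CD40 (log2 1.29 ± 0.16 SE, edgeR adjusted p = 0.00239). Cited1, a transcriptional coactivator, was 59.4 and 43.4 CPM against 123 CPM (log2 1.44 ± 0.30 SE, adjusted p = 0.0441). In B2m-null tumours 1 fell, where 0.236% of all genes did, and 0 rose. This was Myo5a, the motor that moves melanosomes along actin, which went from 262 and 279 CPM to 138 and 141 CPM (log2 -0.85 ± 0.15 SE, adjusted p = 0.0180). Between genotypes none passed under isotype. S100a1 was the 1 gene lower in B2m-null tumours under CD40, where 0.253% of all genes were, at 156 and 143 CPM (log2 -0.88 ± 0.16 SE, adjusted p = 0.0487). The list's median log2 change lay between -0.14 and 0.14 in the 4 comparisons.

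Immune cells held the pigment genes at a low level, which differed between classes of the same pool. In the control isotype pools the genes other than Mitf summed to 44.5 and 48.3 CPM in monocytes and macrophages. In CD8 T-like cells of these pools they summed to 15.3 and 11.8 CPM. In monocytes and macrophages, the largest class with 48813 barcodes, the genes other than Mitf summed to 20.6 to 50.7 CPM over the pools. In CD8 T-like cells (15959 barcodes) the sum was 5.00 to 38.9 CPM, in NK-like cells 3.53 to 29.0 CPM and in conventional dendritic-like cells 5.31 to 26.9 CPM. The sum in melanoma-like cells was 9703 to 12350 CPM. Melanoma-like cells held 94.7% to 97.1% of the UMIs of these genes in each pool's barcodes that passed the filters. CD8 T cells are not known to express them, and their level is given as the background. The highest CD8 T-like barcode held 49 UMIs of these genes. Free RNA can add to any class and engulfed RNA to phagocytes, and the sources were not tested.

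**Figure D2:**
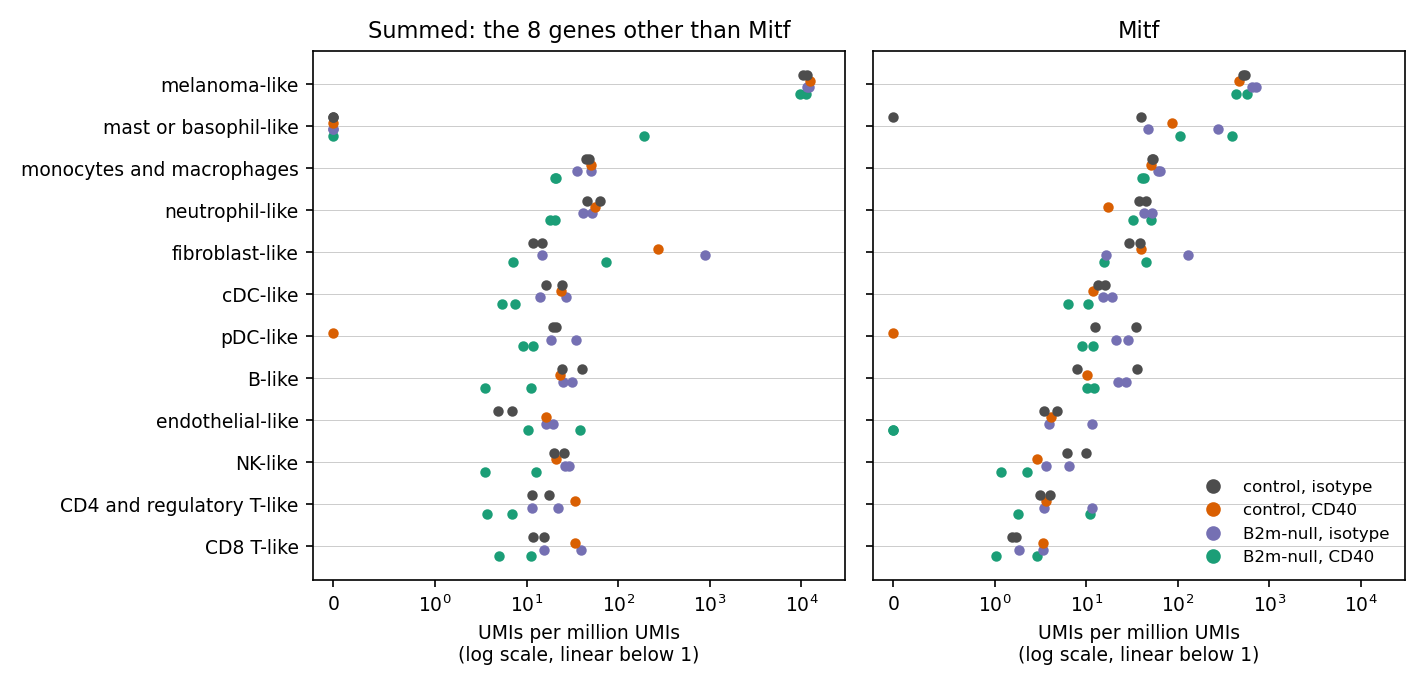
Summed level of the genes other than Mitf (left) and level of Mitf (right) in each cell class, in CPM on a log axis that is linear below 1. Each point is 1 pool coloured by group. In the left panel the ranges over pools of monocytes and macrophages (20.6 to 50.7) and CD8 T-like cells (5.00 to 38.9) overlap. Mitf is 40.1 to 63.5 in the former and 1.04 to 3.39 in the latter.

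Over all pools Dct and Tyrp1 led this low signal, as they did in the tumour cells. Of the summed UMIs of the genes other than Mitf, Dct took 42.2% in melanoma-like cells (36.6% to 44.5% over pools), 34.8% in monocytes and macrophages (28.6% to 38.7%) and 32.8% in CD8 T-like cells (23.8% to 41.7%). Tyrp1 took 19.99%, 27.8% and 25.1% in the same order, Pmel 16.8%, 14.4% and 18.4%, and Mlana 13.2%, 15.1% and 15.6%. The order of the leading genes varied by pool. Tyrp1 was above Dct in monocytes and macrophages of control isotype replicate 1 (68.1 against 53.5 UMIs per 1000 barcodes) and in CD8 T-like cells of both control isotype pools (24.4 against 15.3, and 23.5 against 16.8). The signal was spread thinly. Of monocytes and macrophages, 41902 of 48813 barcodes had no UMI of these genes and 6505 had 1 or 2. Barcodes with at least 5 were 0.229% of the class and held 12.6% of its UMIs. The highest single barcode had 62.

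Monocytes and macrophages held more UMIs of the pigment genes per barcode than CD8 T-like cells of the same pool. The within-pool difference was compared with an exact two-sided sign-flip permutation test over 7 pools, whose smallest possible p is 0.0156, and the 9 p-values were not adjusted. Dct measured 68.1 ± 23.5 UMIs per 1000 barcodes (SD, n = 7 pools) in monocytes and macrophages and 17.7 ± 8.29 in CD8 T-like cells. Tyrp1 measured 54.6 ± 20.03 and 16.9 ± 8.82, Mlana 29.9 ± 10.3 and 7.14 ± 3.76, and Pmel 27.6 ± 9.29 and 7.79 ± 4.35. Each was higher in 7 of 7 pools (exact p = 0.0156). So were Tyr, at 6.06 ± 2.51 and 1.35 ± 1.33, Slc45a2, at 6.02 ± 1.85 and 2.30 ± 1.78, and Sox10, at 2.96 ± 1.49 and 0.707 ± 1.37 UMIs per 1000 barcodes (SD, n = 7, exact p = 0.0156). Gpr143, with 17 UMIs in one class and 1 in the other, was higher in 6 of 7 pools (exact p = 0.0313). On the CPM scale the ratio between the classes was smaller for each of these genes, and Dct and Tyrp1 are given. Over the pools Dct was 13.4 ± 4.50 CPM in monocytes and macrophages and 6.32 ± 4.74 CPM in CD8 T-like cells, and Tyrp1 10.8 ± 4.25 and 5.34 ± 2.69 CPM (SD, n = 7). Sox10 did not pass on the CPM scale, and neither Sox10 nor Gpr143 passed with stricter cell filters. Gpr143 also did not pass in most runs that left out a replicate. The per-barcode test was run on the 9 genes only. The share of all genes that would pass between classes of such different depth was not counted.

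**Figure D3:**
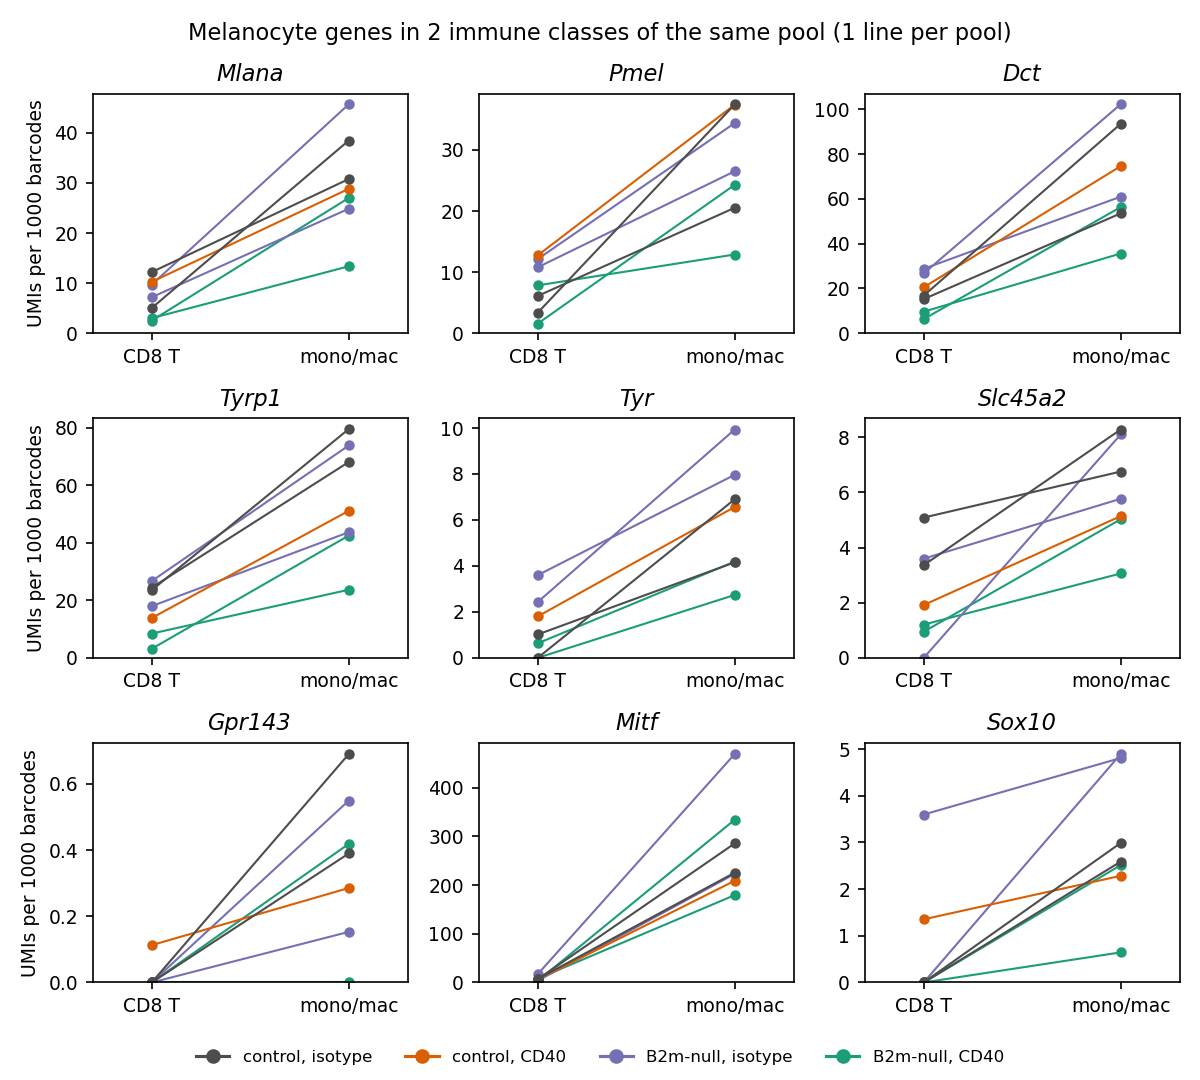
UMIs of each gene per 1000 barcodes in CD8 T-like cells and in monocytes and macrophages. Each line joins the 2 classes of 1 pool, and the vertical axes start at 0 and differ between panels. All lines rise except that of Gpr143 in B2m-null CD40 replicate 1, where both values are 0.

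Depth differed between these classes. The median barcode held 2285 to 6393 UMIs in monocytes and macrophages and 1193 to 3196 in CD8 T-like cells. For the values by depth, barcodes with at least 5 UMIs of the genes other than Mitf were left out. The pools gave different shares of each class. Summed over pools, barcodes of 4000 to 8000 UMIs held 199 UMIs of these genes per 1000 barcodes in monocytes and macrophages and 70.7 in CD8 T-like cells. By pool the values were 105 to 264 in the former over 7 pools and 17.7 to 116 in the latter over 6. Among those of 500 to 1000 UMIs the sums over pools were 55.6 and 33.6.

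Mitf departed from the other 8 genes. It was the most abundant of the 9 in monocytes and macrophages, at 40.1 to 63.5 CPM (median 51.5), and stood at 1.04 to 3.39 CPM (median 1.85) in CD8 T-like cells. Per 1000 barcodes it measured 275 ± 99.9 and 7.38 ± 4.59 UMIs (SD, n = 7, higher in 7 of 7 pools, exact p = 0.0156). Mitf made up 58.4% ± 6.93 of the summed UMIs of the 9 genes in monocytes and macrophages and 4.70% ± 0.690 in melanoma-like cells (SD, n = 7). The within-pool difference was 53.7 ± 6.85 percentage points and was positive in 7 of 7 pools (exact p = 0.0156). In CD8 T-like cells the share was 4.55% to 20.6%. Without barcodes holding at least 5 UMIs of the genes other than Mitf the difference was 56.5 points.

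Mitf was found in several immune classes besides monocytes and macrophages. By cluster, it was 47.2 CPM in monocytes led by Chil3 and Vcan, 62.1 in macrophages led by Mmp13 and Mmp12, 61.3 in those led by Cd209f and Lyve1, and 53.3 in those led by H2-M2. These are sums over all pools, with no test, and the pools took different shares of each cluster: 4884 of the 6903 barcodes of the H2-M2 cluster came from control CD40. Within the control isotype pools the order was not the same, since Mitf was 71.9 and 65.8 CPM in the H2-M2 cluster, 62.9 and 59.3 in the Mmp13 cluster, and 56.0 and 63.6 in the Cd209f and Lyve1 cluster. Neutrophil-like cells had 17.1 to 52.6 CPM of Mitf over pools and conventional dendritic-like cells 6.38 to 19.0 CPM. B-like cells, which are not myeloid, had 7.96 to 36.0 CPM (median 12.1), a range that overlapped both. Its ends rest on 2 UMIs in 99 barcodes and 6 UMIs in 74 barcodes, and the neutrophil-like low on 7 UMIs. An unnamed cluster of 174 barcodes led by Mmp9, Ctsk and Acp5, genes known from osteoclasts, had 92.4 and 60.9 CPM in the B2m-null CD40 pools and 91.7 CPM in the control CD40 pool. Mast or basophil-like cells, 78 barcodes in all, had 9 UMIs of Mitf, or 95.6 CPM.

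In monocytes and macrophages of B2m-null tumours, pigment genes were lower under CD40. Dct measured 17.4 and 13.1 CPM under isotype and 7.96 and 7.18 CPM under CD40 (log2 -0.78 ± 0.18 SE, edgeR adjusted p = 0.0212). Tyrp1 measured 12.5 and 9.45 CPM against 5.30 and 5.42 (log2 -0.80 ± 0.16 SE, adjusted p = 0.0147). Mlana measured 7.09 and 5.85 CPM against 2.99 and 3.44 (log2 -0.77 ± 0.18 SE, adjusted p = 0.0221), and Tyr 2.27 and 1.27 against 0.612 and 0.534 (log2 -1.37 ± 0.36 SE, adjusted p = 0.0342). No group overlapped the other for these 4 genes, nor for Pmel, Slc45a2, Sox10 and Mitf. The share of all genes without overlap was not counted.

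Of the 8 genes tested there, 4 fell and 0 rose, and all 8 fitted changes were negative. Pmel measured 7.56 and 4.40 CPM against 2.88 and 3.10 (log2 -0.75 ± 0.27 SE, edgeR adjusted p = 0.0842), Slc45a2 differed by -0.76 ± 0.32 (adjusted p = 0.129) and Sox10 by -1.74 ± 0.56 (adjusted p = 0.0616). Gpr143 did not pass the filter on low counts. In this comparison 18.5% of all 13859 genes were called, 8.66% lower and 9.84% higher. The median log2 change was -0.78 for the 8 genes and -0.01 for all genes. Mitf, at 63.5 and 60.0 CPM under isotype and 40.1 and 42.6 CPM under CD40, had a log2 difference of -0.36 ± 0.11 SE (adjusted p = 0.0501). Without B2m-null isotype replicate 1 edgeR called 0 of these genes, and without either B2m-null CD40 replicate it called 2. Mlana did not pass without B2m-null isotype replicate 2 (adjusted p = 0.0519), and Tyr did not pass without control isotype replicate 1 (adjusted p = 0.0552) or 2 (adjusted p = 0.0558). Over 18 alternatives Dct and Tyrp1 each passed in 16, Mlana in 14 and Tyr in 13. With stricter cell filters Tyrp1 (log2 -0.56, adjusted p = 0.0532) and Mlana (log2 -0.59, adjusted p = 0.0819) did not pass, whereas Dct (adjusted p = 0.0195) and Tyr (adjusted p = 0.0498) did.

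The macrophage and monocyte clusters and barcodes of like depth are given apart, as values with no test. In the macrophage clusters Dct was 17.7 and 13.9 CPM under isotype and 9.46 and 7.44 CPM under CD40. In the monocyte clusters it was 15.9 and 8.26 CPM against 6.03 and 5.86 CPM. Barcodes of 4000 to 8000 UMIs were taken without those holding at least 5 UMIs of the genes other than Mitf. Among them these genes gave 264 and 216 UMIs per 1000 barcodes under isotype and 105 and 126 under CD40. Mitf in macrophages was 66.5 and 62.4 CPM under isotype and 39.4 and 42.4 CPM under CD40, and in monocytes 49.2 and 46.5 against 40.9 and 43.5 CPM. The class was made up of different clusters in the groups and pools compared. The largest cluster was led by Chil3 and Vcan in B2m-null isotype replicate 1 (2266 barcodes) and by Mmp13 in replicate 2 (1745). Under CD40 it was led by Ly6i in B2m-null replicate 1 (2312 barcodes) and by Cd209f and Lyve1 in replicate 2 (955). In control tumours it was led by Chil3 and Vcan in isotype replicate 1 (2475 barcodes), by Cd300e and Lipg in isotype replicate 2 (1583) and by H2-M2 in the CD40 pool (4884).

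The melanoma content of the B2m-null pools was also lower under CD40. Shares are of the UMIs in barcodes that passed the filters. Melanoma-like cells held 12.1% and 7.50% of them in the B2m-null isotype pools and 3.57% and 2.48% in the B2m-null CD40 pools. In control tumours they held 6.17% and 7.95% under isotype and 12.2% under CD40. There the genes other than Mitf summed to 44.5 and 48.3 CPM under isotype and 50.7 CPM under CD40 in monocytes and macrophages. The part of this content in the lower values in monocytes and macrophages was not tested.

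**Figure D4:**
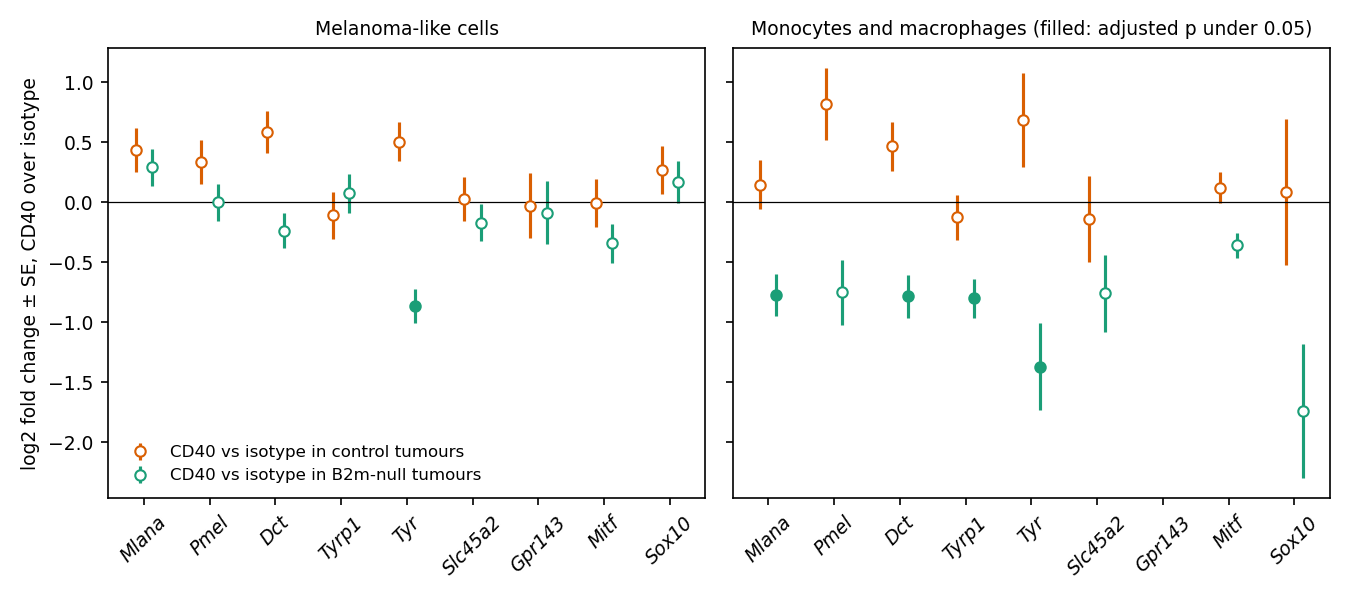
Fitted log2 fold change of CD40 over isotype for each gene, with bars of 1 SE, in melanoma-like cells (left) and in monocytes and macrophages (right). Filled points passed an adjusted p of 0.05. In monocytes and macrophages all 8 B2m-null points lie below 0, whereas 6 of the 8 control points lie above it. Gpr143 was not tested there.

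In control tumours edgeR called 0 of the 8 genes in monocytes and macrophages, where it called 5.8% of all genes, and DESeq2 called 0. At an unadjusted p under 0.05 edgeR had 2 of the 8, and 3467 of all 13859 genes. Pmel was 4.87 and 6.76 CPM under isotype and 9.19 under CD40 (log2 0.82 ± 0.30 SE, adjusted p = 0.138). Between genotypes edgeR called 0 under isotype, where it called 0.664% of all genes, and DESeq2 called 0. Under CD40 edgeR called 0, where it called 0.13% of all genes. At an unadjusted p under 0.05 edgeR had 1 of the 8 under isotype and 7 under CD40. Of all 13859 genes it had 1932 and 2710. DESeq2, whose share of all genes called is not given, called 4 under CD40. All were lower in B2m-null tumours: Tyrp1, Pmel, Dct and Mlana. edgeR's adjusted p for these 4 ran from 0.0683 to 0.0827.

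In CD8 T-like cells 5 of the 9 genes passed the filter on low counts, and edgeR and DESeq2 called 0 of them in any of the 4 comparisons. The largest cluster of the class was led by Gzmf under isotype (1115 barcodes in control tumours) and by Ccl5 and Gzmk in the control CD40 pool (5417) and in B2m-null CD40 replicate 2 (1505). In B2m-null CD40 replicate 1 the cluster led by Gzmf was larger (830 against 748 barcodes). The shares of all genes called by edgeR were 12.3% for CD40 in control tumours, 0.296% for CD40 in B2m-null tumours, 0.0627% between genotypes under isotype and 0.0179% under CD40. At an unadjusted p under 0.05 edgeR had 3, 2, 0 and 4 of the 5 genes. Of all 11166 genes it had 3401, 1854, 661 and 1479, in the same order. Dct was 3.63 and 3.81 CPM in the control isotype pools and 11.03 CPM in the control CD40 pool (log2 1.62 ± 0.50 SE, edgeR adjusted p = 0.0548). The technical lanes of that CD40 pool gave 12.7 and 8.58 CPM of Dct. Of its 555 UMIs of the genes other than Mitf in this class, 3 barcodes held 59. In the B2m-null pools Dct was 14.8 and 5.32 CPM under isotype, from 8 and 11 UMIs, and 3.56 and 2.08 CPM under CD40.

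Of the wider pathway list, 45 of 48 genes were tested in monocytes and macrophages. With CD40, 4 rose and 1 fell in control tumours, where 3.83% of all genes rose and 1.97% fell. In B2m-null tumours 5 rose and 6 fell, where 9.84% of all genes rose and 8.66% fell. The list's median log2 change was -0.03 in control and -0.14 in B2m-null tumours. Between genotypes none passed. Gpnmb, a glycoprotein of melanosomes and of macrophage lysosomes, was 239 and 298 CPM under isotype and 997 CPM under CD40 in control tumours (log2 2.05 ± 0.39 SE, edgeR adjusted p = 0.0244). It is among the leading genes of the H2-M2 cluster, which had 264 and 232 barcodes in these isotype pools and 4884 in the CD40 pool. Fabp7, a fatty acid binding protein, was 4.04 and 4.49 against 17.4 CPM (log2 2.18 ± 0.22 SE, adjusted p = 0.00233). Atp7a, a copper transporter that supplies tyrosinase, fell from 57.1 and 59.1 to 31.7 CPM (log2 -0.72 ± 0.13 SE, adjusted p = 0.0223).

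In B2m-null tumours Slc7a11, a cystine transporter, rose from 50.3 and 73.6 to 239 and 139 CPM (log2 1.81 ± 0.26 SE, edgeR adjusted p = 0.00484). Cspg4, a proteoglycan of melanoma cells and pericytes, had 1 and 3 UMIs under isotype and 114 and 52 UMIs under CD40 (adjusted p = 0.00421). Ednrb, the endothelin B receptor, fell from 119 and 139 to 19.1 and 39.96 CPM (log2 -1.89 ± 0.30 SE, adjusted p = 0.00664). It is among the leading genes of the macrophage cluster led by Cd209f and Lyve1, which had 970 and 697 barcodes under isotype and 512 and 955 under CD40. Pax3, a lineage factor upstream of Mitf, fell from 1.84 and 1.08 to 0.468 and 0.374 CPM (log2 -1.54 ± 0.37 SE, adjusted p = 0.0260). In CD8 T-like cells 31 of the list were tested. There, 3 rose with CD40 in control tumours, where 6.67% of all genes did, among them Lef1, from 27.1 and 22.9 to 76.4 CPM, and Gpnmb, from 3.63 and 6.10 to 19.9 CPM. Gpnmb in monocytes and macrophages of the same pools was 239, 298 and 997 CPM, and the part of their RNA in the CD8 T-like value was not tested. None passed in the other 3 comparisons.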

How the data were processed

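The authors deposited unique molecular identifier (UMI) counts per gene and cell barcode. Per the submitters' processing notes, bcl2fastq 2.20.0.422 and Cell Ranger 3.0.0 were used with build mm10, and per the labels the libraries were 3' version 3 with hashtag antibodies. Nothing in the labels says how the pools of a group differed beyond their replicate number, so p-values measure the spread between these pools. Of 116552 barcodes, 9445 carried 2 hashtags (each over 2.5 SD past its background) and were taken out as doublets. Doublets within a mouse, or with a cell that took up no hashtag, are not marked. Of melanoma-like barcodes 63.7% to 91.8% in the B2m-null pools and 17.3% to 44.9% in the control pools had no hashtag, so this step could not act alike on doublets with melanoma cells in both genotypes, and its part in the values was not tested. Those with under 200 genes or over 10% mitochondrial counts were also dropped, and 91671 stayed. They were clustered without the 9 genes (scanpy 1.11.5, leidenalg 0.10.2, 2000 variable genes, 40 components, 20 neighbours, resolution 1) into 27 clusters, named from markers, with naming thresholds set after the data were seen. Some clusters stayed unnamed, the largest mixing T cell and macrophage transcripts, and class names are rebuilt here, not the authors'.

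Counts were summed per pool and class and tested over all genes with edgeR 4.0.16 (quasi-likelihood test, TMM, filterByExpr, all 4 groups in 1 fit, Benjamini-Hochberg threshold 0.05). Intervals on single values are exact Poisson at 95% and cover counting error only. The procedure was tested on simulated counts. Alternatives were DESeq2 1.42.0, other scaling and filters, left-out lanes, a replicate block, and mice as units. Named genes are the 9, B2m, the 5 most alike in pattern, and per comparison the 2 called pathway genes with the largest change in each direction. The 9 genes and all lists were chosen with earlier results of these data known.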

Additional observations from a re-analysis of the deposited data

Results flagged for a closer look

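In melanoma-like cells the fitted CD40 effect on Tyr in B2m-null tumours minus that in control tumours was -1.37 ± 0.22 on the log2 scale (SE, edgeR interaction term added after the data were seen, adjusted p = 0.0226), and no other of the 9 genes passed. The control effect rests on 1 CD40 pool, which cannot be told apart from its treatment. Over 12 alternatives the difference ran from -1.46 to -1.14 and passed in 8, with adjusted p from 2.92e-06 to 0.348. Stricter cell filters gave the smallest difference and the highest adjusted p.

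Mice were assigned by hashtag, and 6 sets of 4 or 5 mice of 1 class and group were looked at on 3 values each: Mitf, Dct and the sum of the genes other than Mitf, which holds Dct. In 3 of these 18 overlapping looks 1 mouse stood far from the rest, and 2 of the 3 were the same mouse. Chance marks about 1 in 20 when the looks are independent, which these are not. In B2m-null tumours under isotype, monocytes and macrophages of 1 of 5 mice had 146 CPM of the genes other than Mitf, against 32.8 to 54.1 CPM in the others, and 43.5 CPM of Dct, against 11.9 to 16.2 CPM. That mouse had 296 barcodes and 101 UMIs of these genes. Its share of barcodes with such a UMI was the lowest of the 5, at 13.9% against 14.5% to 27.2% for the genes other than Mitf. In the whole pool, 11 monocyte and macrophage barcodes with at least 5 such UMIs held 110, and 1 of them held 41, but how many of these belong to that mouse was not examined. Its Mitf, at 33.3 CPM, was the lowest of the 5. In control tumours under isotype, 1 of 5 mice had 62.9 CPM of Mitf, against 50.3 to 51.8 CPM in the others.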

How the results depend on the processing

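Counts of the 9 genes called are given for alternatives that moved them by more than 1.5 times. In melanoma-like cells, CD40 against isotype in control tumours gave 0 calls, but 1 without the low-count filter, 1 with DESeq2 and 3 with mice as units. CD40 in B2m-null tumours gave 1 call, but 0 with stricter cell filters (500 genes, 5% mitochondrial) and 0 to 1 leaving out replicates. Between genotypes the count of 0 became 1 without the filter and 1 with DESeq2 under isotype. Under CD40 it became 2 without the filter, 1 with DESeq2 and 1 with the 9 genes used in clustering. For monocytes and macrophages, CD40 in control tumours gave 1 call without the filter. CD40 in B2m-null tumours gave 0 to 5 leaving out replicates, around 4. Between genotypes under CD40 the count of 0 became 5 without the filter, 4 with DESeq2, 2 with stricter cell filters, 5 with mice as units and 0 to 3 leaving out replicates. In CD8 T-like cells, CD40 in control tumours gave 2 without the filter, 3 with mice as units and 0 to 2 leaving out replicates. CD40 in B2m-null tumours gave 0 to 1 leaving out replicates. Between genotypes under CD40 there were 4 without the filter, 4 with mice as units and 0 to 3 leaving out replicates. The shares of all genes called under these alternatives, DESeq2 and the replicate block among them, are not given. The counts are therefore not read as particular to the 9 genes. The causes were not tested.

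The excess of Gpr143 UMIs per 1000 barcodes in monocytes and macrophages over CD8 T-like cells was 0.339, 0.143 with stricter cell filters (exact permutation p = 0.25) and 0.281 to 0.396 leaving out replicates. That of Sox10 was 2.25, 0.753 with stricter filters (exact permutation p = 0.688), and 0.231 CPM on the CPM scale (exact permutation p = 0.234). Gpr143 also lost its call in most runs that left out a replicate. Of the other values of this comparison, none lost its call. Among all alternatives of the exact tests, that of the Mitf share included, 9 lost their call and 121 kept it. No result changed direction. Of the alternative counts of calls, 165 stayed within 1.5 times, 24 were higher and 5 lower.

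Equal replicate numbers did not pair the pools: deviations of same-numbered pools correlated at -0.0741 to 0.159. A replicate block over 6 pools gave 1 call for CD40 in B2m-null tumours and 0 between genotypes in melanoma-like cells, 5 and 0 in monocytes and macrophages, and 0 and 0 in CD8 T-like cells. The same pools without the block gave the same counts.

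With 1 pool in the control CD40 group and 46 to 178 melanoma-like cells in most pools, small changes could not be resolved. Single-gene counts in CD8 T-like cells were often under 20 UMIs a pool.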

Other observations

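Fibroblast-like cells carried the pigment genes unevenly over pools. The genes other than Mitf summed to 895 CPM in B2m-null isotype replicate 1 and 271 CPM in the control CD40 pool, against 7.04 to 73.5 CPM in the other pools. In B2m-null isotype replicate 1 these were 717 UMIs in 155 barcodes, of which 9.03% had any, and in the control CD40 pool 771 UMIs in 287 barcodes, of which 13.9% had any. Mitf was 15.5 to 45.2 CPM in 6 pools and 130 CPM in B2m-null isotype replicate 1.

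In endothelial-like cells of B2m-null CD40 replicate 2, Gpr143 had 4 UMIs in 11 barcodes (38.6 CPM, 95% exact Poisson interval from 10.5). In the other pools it had 0 or 1 UMI. This value was chosen after it was seen.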
